A study of Homo sapiens with 6 samples.

Results

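The Krüppel-like factors described here are 10 genes of T24 cells (KLF2, KLF3, KLF4, KLF5, KLF6, KLF7, KLF9, KLF10, KLF11 and KLF13), chosen by name. Every probe set annotated to exactly 1 of these genes was taken, which gave 32 of the 49395 probe sets on the arrays and 10 of the 18132 genes they name. T24 is an established line of human urinary bladder carcinoma. Of 6 expression arrays, 3 carried RNA of T24 cells exposed for 48 hours to 10 µg/ml of MAP30, a plant protein from bitter melon (Momordica charantia) that inactivates ribosomes, and 3 carried RNA of control cells, which the labels call normal. The labels used here do not describe a mock treatment of the controls. All cells are of the 1 line, and since separate cultures are not stated, a p-value covers the spread of these arrays alone, which may be technical.

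Krüppel-like factors are transcription factors that bind GC-rich and CACCC sequences through a run of zinc fingers at the end of the protein. The fingers are much alike across the family, while the rest of the protein differs and recruits different partners. One branch, with KLF2, KLF4, KLF5, KLF6 and KLF7 as its members here, is known mostly for activation through histone acetyltransferases. A further branch represses through the CtBP corepressor, with KLF3 as its member here, and the last, with KLF9, KLF10, KLF11 and KLF13, binds the Sin3A corepressor. In epithelia KLF5 is known for dividing cells and KLF4 for cells that leave the cycle and differentiate.

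The arrays measured transcripts of these genes, and the stretch ahead of the start site is shown for members that rose and members that fell. RefSeq promoter entries on GRCh38.p14 were found for 8 of the 10 genes, 13 entries in all, and the 250 bases before each start were read. KLF5 has 2 entries, and the GC-rich one is printed (chr13:73058755-73059004, plus strand). The windows of KLF4 (chr9:107489770-107490019, minus strand), KLF6 (chr10:3785210-3785459, minus strand), KLF2 (chr19:16324576-16324825, plus strand), KLF9 (chr9:70414658-70414907, minus strand) and KLF13 (chr15:31326585-31326834, plus strand) follow. The first 4 genes rose with MAP30 and the last 2 fell. Capitals mark matches, on either strand, to the GC box GGGCGG, the CACCC box CACCC, the EGR motif GCGNGGGCG, the CRE TGACGTCA, the AP-1 motif TGANTCA, the MEF2 motif and the CArG box.
KLF5: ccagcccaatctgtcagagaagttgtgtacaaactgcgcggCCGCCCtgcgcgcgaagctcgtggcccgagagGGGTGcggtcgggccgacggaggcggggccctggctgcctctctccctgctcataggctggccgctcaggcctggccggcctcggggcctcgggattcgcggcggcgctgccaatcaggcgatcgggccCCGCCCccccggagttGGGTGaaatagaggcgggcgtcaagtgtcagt
KLF4: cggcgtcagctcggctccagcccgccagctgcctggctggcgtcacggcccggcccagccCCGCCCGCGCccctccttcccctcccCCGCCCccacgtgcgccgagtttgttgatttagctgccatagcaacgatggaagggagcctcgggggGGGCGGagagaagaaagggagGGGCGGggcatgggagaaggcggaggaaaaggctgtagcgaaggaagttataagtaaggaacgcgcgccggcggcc
KLF6: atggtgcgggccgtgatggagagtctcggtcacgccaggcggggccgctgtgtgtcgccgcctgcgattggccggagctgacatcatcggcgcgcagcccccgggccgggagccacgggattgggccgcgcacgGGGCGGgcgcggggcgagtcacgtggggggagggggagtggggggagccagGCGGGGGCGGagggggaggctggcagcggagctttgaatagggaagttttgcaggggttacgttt
KLF2: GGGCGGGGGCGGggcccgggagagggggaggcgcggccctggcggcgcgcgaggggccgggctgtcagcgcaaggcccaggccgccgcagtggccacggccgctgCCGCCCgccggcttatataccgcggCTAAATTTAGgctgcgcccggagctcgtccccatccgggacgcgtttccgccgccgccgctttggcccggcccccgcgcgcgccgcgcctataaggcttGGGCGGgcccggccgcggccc
KLF9: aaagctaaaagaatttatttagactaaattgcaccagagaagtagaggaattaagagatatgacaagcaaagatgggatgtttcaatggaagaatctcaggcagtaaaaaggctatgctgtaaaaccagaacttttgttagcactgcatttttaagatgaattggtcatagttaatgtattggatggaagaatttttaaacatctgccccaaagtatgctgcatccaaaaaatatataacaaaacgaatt
KLF13: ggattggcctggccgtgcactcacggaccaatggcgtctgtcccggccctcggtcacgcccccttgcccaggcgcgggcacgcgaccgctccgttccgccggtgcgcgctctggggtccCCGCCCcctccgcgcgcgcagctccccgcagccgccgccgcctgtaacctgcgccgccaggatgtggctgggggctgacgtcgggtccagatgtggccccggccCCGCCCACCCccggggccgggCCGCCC
The GC box, which can overlap the EGR motif, was in 8 of the 13 windows and in 42.6% of all 35116 entries of the same length. The most, 6, were in a window of KLF11, which did not pass the test below. KLF4, KLF2 and 1 of 4 windows of KLF7 had 4 each, KLF13 had 3, and KLF6 and the printed window of KLF5 had 2, while the other window of KLF5 had 0. Among members that fell, the window of KLF13 was 78.8% G and C and that of KLF9 32.4%. For those that rose, it was 80% in KLF2, 69.2% in KLF4, 72.4% in KLF6, and 70.8% and 40.8% in KLF5. The windows of KLF7, which also rose, ran from 41.6% to 72%. KLF3 and KLF10 had no entry, and a relation of base composition to direction was not tested. No letters of any searched motif were in the window of KLF9, which was 32.4% G and C, against a median of 58% over all entries. The EGR motif was in the windows of KLF2, KLF4 and KLF6 and in 8.41% of all entries. KLF2 had the only MEF2 match among the members, with its first base at position -120 from the start site, and 2.8% of all entries had a match. The remaining motifs were rarer: a CRE was in 1 of the 13 windows, of KLF11 (1.65% of all entries), a CArG box in 1, of KLF7 (1.16%), and AP-1 in 0 (6.57%). The CACCC box was in 6 of the 13 windows and in 54.7% of all entries. These are letter matches only, and no binding was measured.

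With MAP30, 6 of the 10 genes rose, 3 fell and 1, KLF11, did not pass the test (limma, adjusted p under 0.05 over all genes). Calls were common on these arrays: 26.9% of all 18132 genes were called higher and 30.6% lower. At least a 2-fold rise was met by 4 members, KLF5, KLF10, KLF4 and KLF6, and by 5.42% of all genes. One member, KLF13, fell at least 2-fold, as did 4.13% of all genes. KLF6 and KLF13 lay near that cut, which is 1 on the log2 scale. Across the alternative settings KLF6 ran from 0.86 to 1.68 and KLF13 from -1.25 to -0.88. The median log2 fold change of the 10 genes was 0.58, beside -0.02 over all genes. Without regard to sign, the median size of change was 0.92 for the members and 0.19 for all genes on the log2 scale. The 10 genes were chosen with earlier results of these data known, so these counts and medians describe them and are no evidence that the family stands apart. The 3 MAP30 and 3 control arrays did not overlap in 9 of the 10 genes, which held for 62.6% of all genes. By probe set, 17 of 32 were called higher (26.2% of all probe sets) and 6 lower (30.1%), while 9 did not pass and 56.3% of all probe sets were called in either direction. The groups did not overlap in 24 of the 32, against 61.9% of all probe sets. A rise of at least 2-fold was met by 10 probe sets (6.15% of all) and such a fall by 1 (5.38%). In bulk RNA a change in the number of expressing cells and in RNA per cell cannot be told apart.

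The deposited values are on a log scale, read here as base 2, and each probe set was already centred on its own median across the 6 arrays. A value of 1 therefore means 2-fold above that probe set's own middle, and no gene can be called abundant or absent. The SD of the difference between arrays was 0.131 to 0.147 within groups and 0.678 to 0.682 between groups. The log2 ratio of the 3' over the 5' control probe sets of ACTB, a measure of RNA integrity, was higher with MAP30 by 0.158 (SD 0.007 in MAP30 and 0.021 in control, n = 3 each; two-sided exact permutation p = 0.1, the smallest that 3 against 3 arrays allow). GAPDH differed by 0.043 (exact permutation p = 0.1). These differences lie between the same groups as every result on the Krüppel-like factors, and their part in them was not tested.

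**Figure D1:**
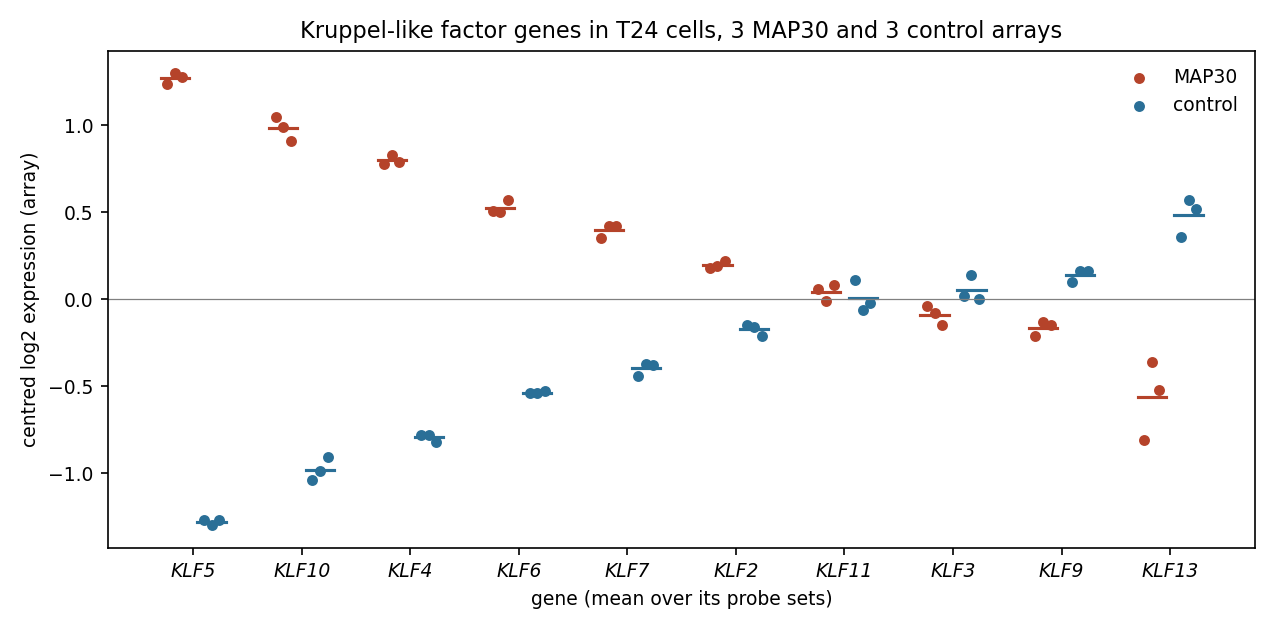
Centred log2 expression (vertical axis) of the 10 genes in each of the 3 MAP30 arrays (red) and 3 control arrays (blue), as the mean over the probe sets of each gene. Bars are group means. From KLF5 to KLF2 all MAP30 arrays lie above all control arrays, in KLF11 the groups overlap, and in KLF3, KLF9 and KLF13 the MAP30 arrays lie below.

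The 5 activators all rose, and 14 of their 16 probe sets were called higher and 0 lower. Over all genes 26.9% were called higher, and over all probe sets 26.2%. The branches were set with earlier results of these data known, so the counts only describe these genes. KLF5, which drives proliferation in epithelial cells, had values of 1.24, 1.30 and 1.28 in the MAP30 arrays, against -1.27, -1.30 and -1.27 in the control arrays. The arrays of each group lay close together and far from the other group. KLF5 was 5.86-fold higher with MAP30 (log2 fold change 2.55 ± 0.03 SE, n = 3 per group; adjusted p = 6.84e-09), rank 97 of 18132 genes by rise. Its 3 probe sets stood at 2.67, 2.60 and 2.38 on the log2 fold change scale, and each was called higher. The lowest of these is of the class marked _x_at, whose probes may also bind other transcripts.

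KLF4, which promotes exit from the cell cycle and barrier differentiation in epithelia and is one of the reprogramming factors, had 0.78, 0.83 and 0.79 in the MAP30 arrays and -0.78, -0.78 and -0.82 in the control arrays. It was 3.02-fold higher (1.59 ± 0.03 SE; adjusted p = 2.69e-08), and the groups were far apart. Both of its probe sets were called higher, at 1.68 and 1.51. KLF5 and KLF4, which are known for opposite effects on the division of epithelial cells, thus rose in the same arrays.

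KLF6, a gene known to be induced by tissue injury and to restrain growth, had 0.51, 0.50 and 0.57 in the MAP30 arrays and -0.54, -0.54 and -0.53 in the control arrays. Taken over its 5 probe sets it was 2.1-fold higher (1.07 ± 0.03 SE; adjusted p = 1.49e-07). The probe sets formed separate sets: 11716094_a_at, 11716093_a_at and 11716095_s_at were called higher at 1.89, 1.79 and 1.69. In contrast 11760124_a_at stood at 0.06 (adjusted p = 0.601) and 11760125_a_at at -0.10 (adjusted p = 0.189), and neither passed. The 95% intervals of those that passed lay from 1.58 upward, and those of the other pair ended at 0.28. The gene value is a mean over both sets, and the median over the probe sets gave 1.68. The transcripts of KLF6 that each probe set reads were not analysed here.

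KLF7, known from axon growth in neurons, had 0.35, 0.42 and 0.42 in the MAP30 arrays and -0.44, -0.37 and -0.38 in the control arrays. It was 1.74-fold higher (0.80 ± 0.04 SE; adjusted p = 8.84e-07), with no overlap of the groups. All 4 probe sets were called higher. Of these, 3 lay between 0.89 and 0.92, and 11759428_a_at stood lower at 0.47. KLF2, known for keeping endothelial cells and T cells quiescent, had 0.18, 0.19 and 0.22 in the MAP30 arrays and -0.15, -0.16 and -0.21 in the control arrays. Its rise was the smallest among the activators, 1.29-fold (0.37 ± 0.03 SE; adjusted p = 3.39e-05), and a larger change in size was seen in 34% of all genes. Both probe sets of KLF2 were called higher, at 0.40 and 0.34.

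**Figure D2:**
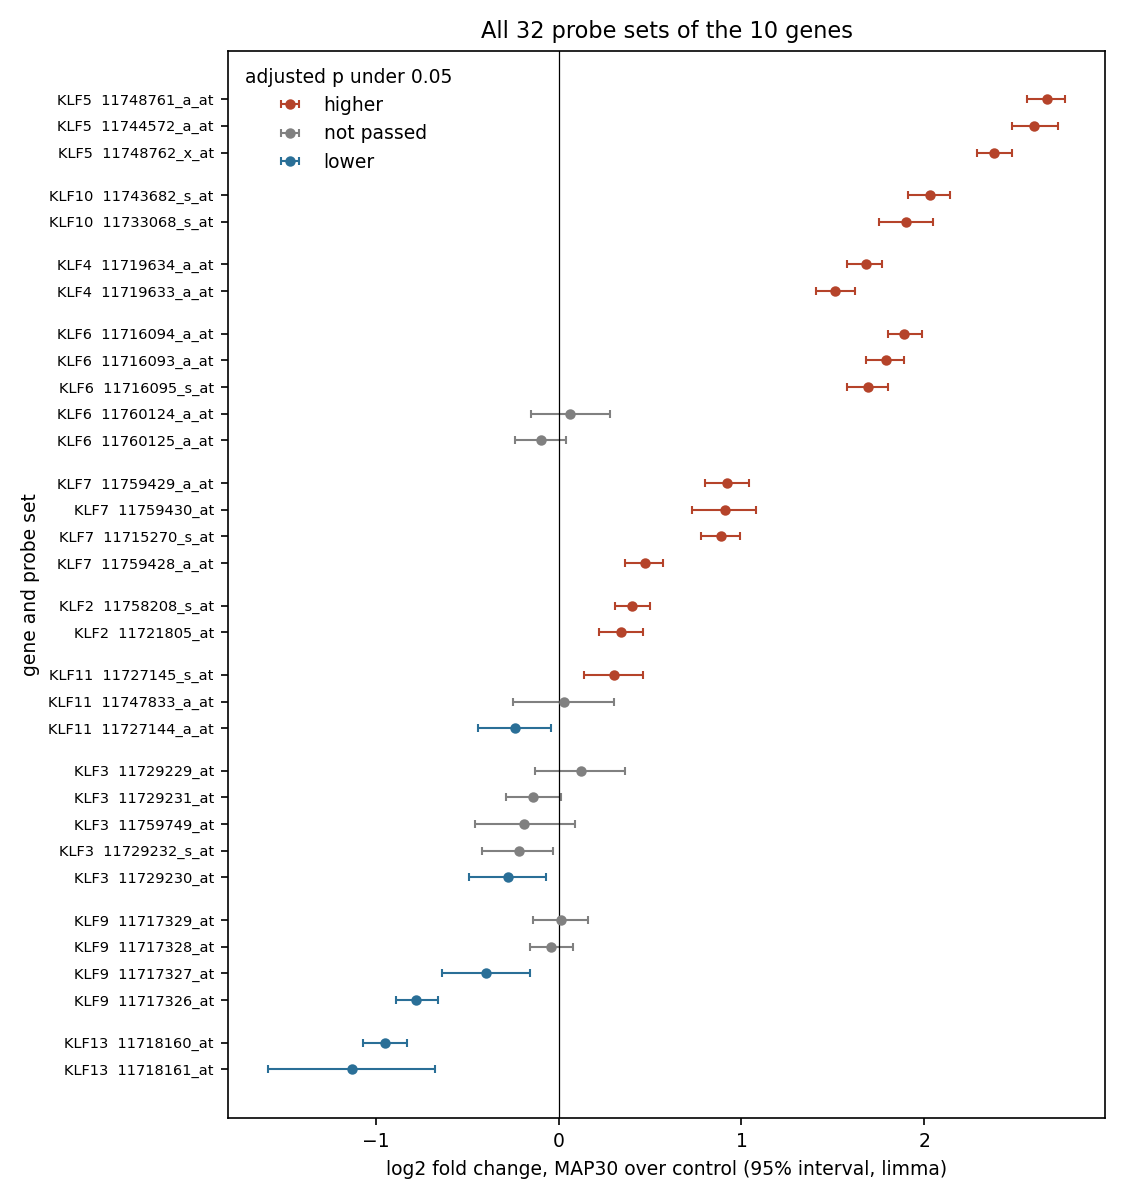
Log2 fold change of MAP30 over control (horizontal axis) with its 95% interval from limma for each of the 32 probe sets, grouped by gene. Red points were called higher (17), blue points lower (6) and grey points did not pass (9); the probe sets of KLF6 fall into 3 near 1.69 to 1.89 and 2 near 0, and those of KLF11 lie on both sides of 0.

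KLF3, which represses genes through CtBP, changed little. Its values were -0.04, -0.08 and -0.15 in the MAP30 arrays and 0.02, 0.14 and 0.00 in the control arrays, so the groups were adjacent but did not overlap. The gene fell 1.1-fold (-0.14 ± 0.05 SE; adjusted p = 0.0455). That call was lost or turned in 10 of 16 alternative settings, among them without MAP30 replicate 2 (-0.15, adjusted p = 0.0883), without MAP30 replicate 3 (-0.11, 0.132), without control replicate 1 (-0.16, 0.0643) and without control replicate 2 (-0.10, 0.128). Of its 5 probe sets 1 was called lower, 11729230_at at -0.28, and the others ran from -0.22 to 0.12 without passing.

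The Sin3A-binding members went in both directions: 1 of 4 rose, 2 fell and 1 did not pass, where 26.9% of all genes rose and 30.6% fell. KLF10, an early response gene of TGF-beta, had 1.05, 0.99 and 0.91 in the MAP30 arrays and -1.04, -0.99 and -0.91 in the control arrays. It was 3.9-fold higher (1.96 ± 0.05 SE; adjusted p = 6.34e-08), with both probe sets called higher at 2.03 and 1.90. After KLF5 this was the largest rise among the members, at rank 226 of all genes. Both probe sets of KLF10 are of class _s_at, and none of class _at or _a_at was available.

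KLF13, known as an activator of the chemokine gene CCL5 late in T cell activation, had -0.81, -0.36 and -0.52 in the MAP30 arrays and 0.36, 0.57 and 0.52 in the control arrays. The groups did not overlap, but the MAP30 arrays were spread more widely (SD 0.23) than for any other member. It was 2.06-fold lower (-1.04 ± 0.11 SE; adjusted p = 0.000102). Most of the spread came from 11718161_at, with -1.08, -0.28 and -0.60 in the MAP30 arrays. The other probe set, 11718160_at, had -0.53, -0.43 and -0.44 in the MAP30 arrays and 0.43, 0.49 and 0.53 in the control arrays. Both were called lower, at -1.13 and -0.95, and without any 1 array the gene stayed between -1.14 and -0.92.

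KLF9, a gene induced by glucocorticoids and thyroid hormone, had -0.21, -0.13 and -0.15 in the MAP30 arrays and 0.10, 0.16 and 0.16 in the control arrays. It was 1.23-fold lower (-0.30 ± 0.04 SE; adjusted p = 0.000299). The groups did not overlap, but the probe sets did not move as 1. Of the 4, 11717326_at was called lower at -0.78 and 11717327_at at -0.40, while 11717328_at (-0.04) and 11717329_at (0.01) did not pass. KLF11, a further TGF-beta-inducible member, had 0.06, -0.01 and 0.08 in the MAP30 arrays and 0.11, -0.06 and -0.02 in the control arrays. Here the groups overlapped, with a log2 fold change of 0.03 (95% interval -0.10 to 0.15; adjusted p = 0.683). Its probe sets were called in opposite directions: 11727145_s_at was higher at 0.30 (adjusted p = 0.00634), 11727144_a_at lower at -0.24 (adjusted p = 0.0474) and 11747833_a_at stood at 0.03. The call of 11727144_a_at was lost without any of the 3 MAP30 arrays (adjusted p = 0.0926, 0.11 and 0.0953), without control replicate 1 (0.118) and without control replicate 3 (0.108).

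By log2 fold change the members ran from KLF5 through KLF10, KLF4, KLF6, KLF7, KLF2, KLF11, KLF3 and KLF9 to KLF13. The 95% intervals of neighbours in this order overlapped for KLF11 and KLF3 (difference 0.17) and for KLF3 and KLF9 (0.16). Between all other neighbours they did not, with differences from 0.27 to 0.74. The place of KLF6 below KLF4 depends on how the probe sets are joined. By the median over probe sets KLF6 stood at 1.68 and KLF4 at 1.59. The scaling of the arrays touched the small changes. When the arrays were aligned on the hybridization controls, spiked-in RNA added before hybridization, the median of all genes moved to -0.23. Then 6 members were higher and 4 lower, with KLF11 at -0.18 (adjusted p = 0.0224) and KLF2 at 0.16. Of all 18132 genes, 3087 were higher and 11558 lower in that setting. When the poly-A controls, spiked-in RNA added before amplification, were used instead, the median of all genes was 0.14. Then 7 members were higher and 2 lower, with KLF11 at 0.19 (adjusted p = 0.0102), KLF3 at 0.02 without a call and KLF9 at -0.14. Of all genes, 8906 were higher and 3754 lower with the poly-A controls. Of all calls, 46.8% were rises as deposited, 21.1% with the hybridization controls and 70.3% with the poly-A controls. KLF9 stood at -0.51 with the hybridization controls. KLF5, KLF10, KLF4, KLF6, KLF7 and KLF2 were called higher and KLF9 and KLF13 lower under every one of the 5 scalings.

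**Figure D3:**
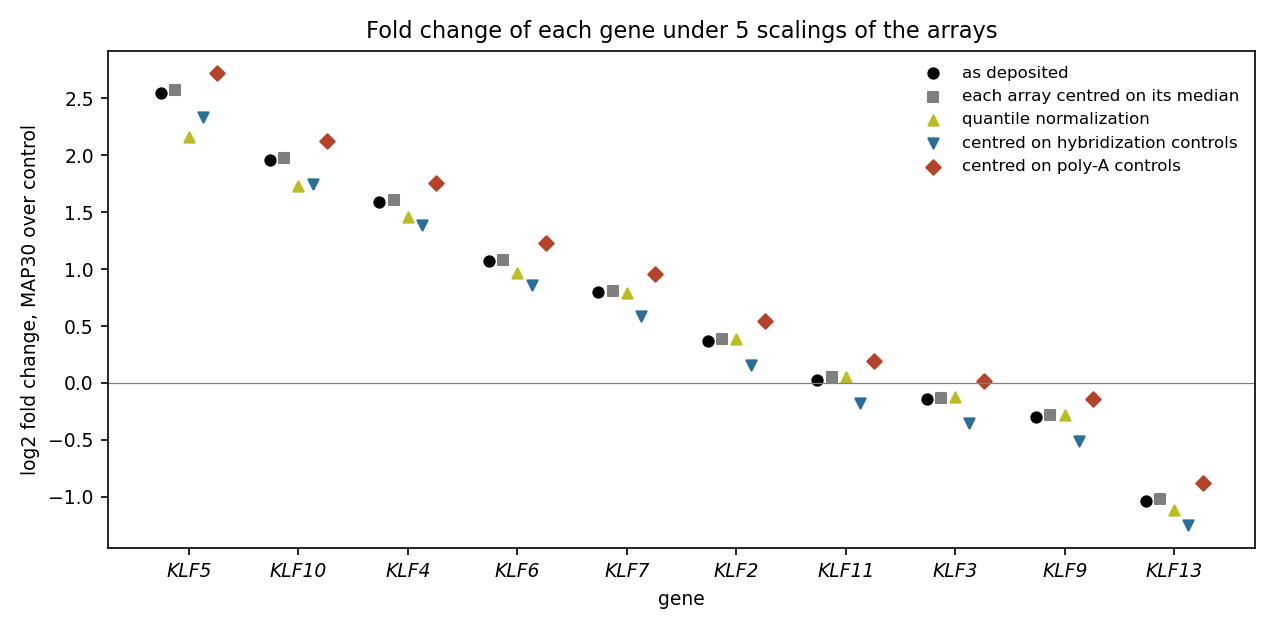
Log2 fold change of MAP30 over control (vertical axis) of the 10 genes as deposited and under 4 other scalings of the arrays. KLF5 lies between 2.16 and 2.72 and KLF13 between -1.25 and -0.88, while KLF11 and KLF3 have values on both sides of 0.

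Among the 16 measured relatives in the SP and KLF family outside the 10 members, 1 rose and 6 fell, with a median of -0.04. Of all genes 26.9% were called higher and 30.6% lower, with a median of -0.02. KLF15, known as a regulator of amino acid and glucose metabolism, was the one that rose: its single probe set had 0.90, 1.08 and 1.09 in the MAP30 arrays and -1.00, -0.90 and -0.94 in the control arrays (3.93-fold; 1.98 ± 0.06 SE; adjusted p = 1.01e-07). SP1, a widely expressed activator that binds the same GC boxes, was 1.66-fold lower (-0.73 ± 0.06 SE; adjusted p = 1.83e-05). The SP1 probe sets 11722810_s_at and 11722808_at stood at -1.29 and -1.18, while 11722809_at stood at 0.27 and did not pass. SP1 was accordingly at -1.17 by the median over its probe sets and at -0.46 with those of class _at or _a_at. SP5 (-0.55) and SP4 (-0.32) also fell. SP3, a close relative of SP1, stood at 0.08 (adjusted p = 0.0916) as deposited. It passed as higher with quantile normalization (0.11), the poly-A controls (0.25) and the median over its probe sets (0.12). With the hybridization controls it stood at -0.13 and did not pass. Its probe sets were called in opposite directions: 11759066_at lower at -0.18, and 11758883_at and 11761980_a_at higher at 0.21 and 0.15. The family members KLF8, KLF12 and KLF16 were called lower by 0.12 to 0.14 in size, chosen for mention after their values were seen. Their adjusted p-values were close to the threshold (0.0451, 0.0392 and 0.0461). These 3 calls were not followed through the alternative settings.

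The partners of these proteins changed as well. Of 11 listed corepressors and coactivators 2 rose and 8 fell, with a median of -0.36 beside -0.02 over all genes. The shares over all genes were 26.9% higher and 30.6% lower. SIN3A, the corepressor of the KLF9 to KLF13 branch, had -0.60, -0.68 and -0.55 in the MAP30 arrays and 0.55, 0.58 and 0.56 in the control arrays, and was 2.26-fold lower (-1.17 ± 0.04 SE; adjusted p = 2.52e-07). CTBP1, the partner of KLF3, was 2-fold lower (-1.00 ± 0.03 SE), with all 4 probe sets between -1.10 and -0.92, and its relative CTBP2 fell by 0.53 on the log2 scale. Most CTBP2 probe sets are of class _x_at, and without them CTBP2 stood at -0.26. The deacetylase gene HDAC1 fell by 0.68, with probe sets called lower at -0.93 and -0.86, while 11761287_a_at stood at -0.25 and did not pass. The 2 that rose were the acetyltransferase genes EP300 (0.53) and CREBBP (0.53). KAT2B, a further acetyltransferase gene, fell by 0.36, and SIN3B (0.15) did not pass.

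Of 8 measured ubiquitin ligase genes reported to act on Krüppel-like factors, 3 rose and 3 fell, with a median of -0.10; over all genes 26.9% rose and 30.6% fell, with a median of -0.02. WWP1, a ligase for KLF5, was lower (-0.43 ± 0.04 SE; adjusted p = 1.99e-05), with -0.21, -0.20 and -0.23 in the MAP30 arrays and 0.17, 0.25 and 0.24 in the control arrays. FBXW7, which also targets KLF5, stood at -0.02 and did not pass (adjusted p = 0.793), but passed as lower at -0.23 with the hybridization controls. SMURF1 (0.71) and BTRC (0.58) rose. The probe sets of BTRC disagreed, with 3 called higher at 1.01 to 1.05 and 1 called lower at -0.78, of class _s_at, without which BTRC stood at 1.03. VHL fell by 0.44, through 1 of its 2 probe sets (-0.80 and -0.08), and did not pass once probe sets of other classes than _at and _a_at were left out (-0.08).

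KLF2 and KLF4 are classical targets of the kinase ERK5 and of MEF2 factors, worked out mostly in endothelium. Of 10 genes of that axis 5 rose and 3 fell, with a median of 0.06. MAPK7, which encodes ERK5, was lower (-0.55 ± 0.04 SE; adjusted p = 1.61e-05), as was MAP3K3 (-0.95), a kinase upstream of it. The MEF2 factor genes MEF2C (1.07) and MEF2A (0.53) were higher. MEF2C was uneven, with its 4 probe sets between 0.11 and 2.55. Around KLF10 and KLF11, 3 of 13 TGF-beta pathway genes rose and 6 fell, with a median of -0.10. Beside both lists, 26.9% of all genes rose and 30.6% fell, with a median of -0.02. The feedback genes SKIL (1.58) and SMAD7 (0.60) rose, and SKI (-1.00), the coreceptor gene TGFBR3 (-0.93) and SMAD3 (-0.70) fell. All probe sets of SKI and TGFBR3 were called lower, from -1.32 to -0.40 and from -1.26 to -0.33. The 5 probe sets of SMAD3 ran from -1.45 to -0.09, where the last did not pass, and SMAD3 stood at -0.31 with those of class _at or _a_at.

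Of 10 genes listed with KLF9 for their response to steroid or thyroid hormone 6 rose and 3 fell, with a median of 0.81. Over all genes 26.9% rose and 30.6% fell, with a median of -0.02. The list was chosen with earlier results of these data known. DUSP1 (2.51), SGK1 (2.51), ERRFI1 (2.24) and NR3C1 (1.13), the glucocorticoid receptor gene, rose, as did PER1 (1.05) and TSC22D3 (0.56). Like KLF9, the thyroid hormone receptor genes THRA (-0.76) and THRB (-0.31) fell, and ZBTB16 (-0.14) did not pass. The glucocorticoid target FKBP5 was called lower at only -0.15. The poly-A controls themselves differed by -0.164 between MAP30 and control, and FKBP5 was not followed under the other scalings. DUSP1 and ERRFI1 are also early response genes of many stimuli. All 10 probe sets of NR3C1 lay between 0.96 and 1.22.

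Of 19 measured genes reported as targets of Krüppel-like factors 5 rose and 9 fell, with a median of -0.05. Among all genes 26.9% rose and 30.6% fell, with a median of -0.02. FGFBP1, a carrier of fibroblast growth factors reported to be activated by KLF5 in bladder cancer cells, had -2.16, -1.83 and -2.23 in the MAP30 arrays and 1.96, 1.83 and 1.87 in the control arrays. FGFBP1 was thus far lower (-3.96 ± 0.10 SE; adjusted p = 5.34e-08) in the arrays where KLF5 was higher. CCND1, the cyclin D1 gene, reported as activated by KLF5 and repressed by KLF4, was 2.24-fold lower (-1.16 ± 0.04 SE), and CDKN1A, a cell cycle inhibitor activated by KLF4 and KLF6, was 2.22-fold higher (1.15 ± 0.04 SE). ODC1, the ornithine decarboxylase gene, which KLF4 is reported to repress, rose by 2.25. LGALS3, a gene that KLF3 represses, was higher (0.61 ± 0.03 SE). THBD, an endothelial target of KLF2, stood at 0.07 and did not pass (adjusted p = 0.355), though it passed at 0.23 with the poly-A controls. Of the other endothelial targets of KLF2 listed, S1PR1 was higher (0.75 ± 0.05 SE; adjusted p = 8.01e-06) and NOS3 stood at 0.05 without passing. Several of these modest changes moved by over 1.5 times with the scaling and kept their call: with the hybridization controls SP4 stood at -0.53, EP300 at 0.32, MEF2A at 0.32, BTRC at 0.37, SMAD7 at 0.39 and LGALS3 at 0.40, and with the poly-A controls SP4 at -0.16, WWP1 at -0.27 and VHL at -0.28. The targets were listed from general knowledge of the factors, and no binding was measured in these cells.

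**Figure D4:**
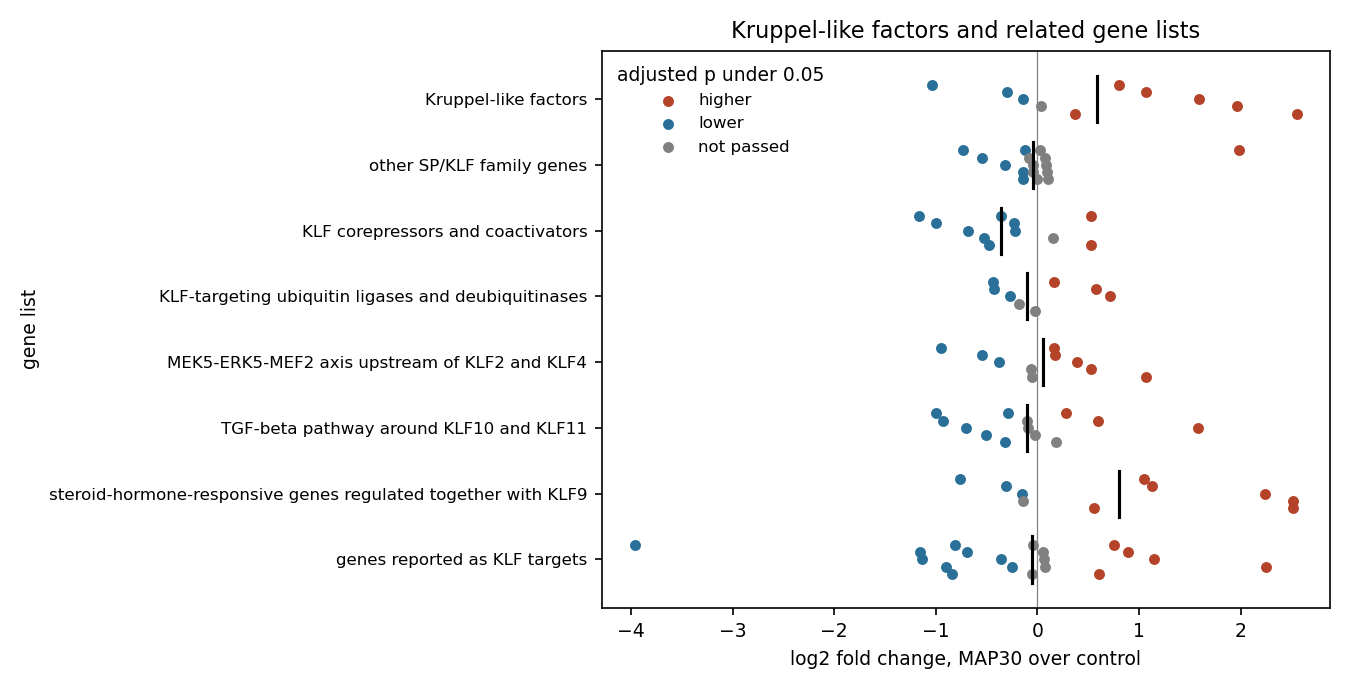
Log2 fold change of MAP30 over control (horizontal axis) of each measured gene in the 10 Krüppel-like factors and 7 related lists. Red points were called higher, blue points lower and grey points did not pass, and black bars are list medians, from -0.36 for the corepressors and coactivators to 0.81 for the hormone-responsive genes.

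Since levels were removed from the deposited values, the identity of the cells could not be checked by the abundance of markers. Of 6 epithelial and urothelial markers 2 were higher with MAP30, GATA3 (2.12) and EPCAM (0.96), and 2 lower, KRT7 (-1.03) and KRT8 (-0.47). Of 6 measured leukocyte markers 3 were higher and 1 lower, of 6 endothelial markers 3 were higher, and of 6 fibroblast markers 2 were higher. Across all genes 26.9% were called higher and 30.6% lower. The leukocyte markers ITGAM (2.76), LCP1 (1.40) and CD68 (0.45) were higher and CD14 (-0.26) was lower. The endothelial markers ROBO4 (2.01), KDR (0.22) and TEK (0.14) and the fibroblast markers ACTA2 (0.33) and COL1A1 (0.14) were higher. Among those that did not pass were PTPRC (0.03), PECAM1 (-0.03), CDH5 (0.00) and DCN (0.03). These markers are named after their values were seen, and their part in the results was not tested.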

How the data were processed

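Biotin-labelled RNA of each sample was hybridised to a 3' expression array, per the labels' protocols. The authors deposited log2 expression values, centred so that each probe set has a median of 0 across the 6 arrays. The base of the logarithm is not stated and was read as 2. RMA and MAS5 are named, without a role, per the submitters' processing notes. No genome build goes with the table. No level, filter on dim probes or background call could be used, and precision is limited by the number of arrays.

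GEO's platform annotation gave exactly 1 gene for 44988 of 49395 probe sets, and these were averaged per gene. The contrast of MAP30 minus control was fitted with lmFit and eBayes of limma 3.58.1 in R 4.3.3, two-sided, with Benjamini-Hochberg adjustment over 18132 genes or over 49293 probe sets that were not controls. The threshold was 0.05. The fit was checked on simulated independent values with planted changes, which cannot show dependence between arrays. Tables were made with Python 3.11.15 and pandas 2.3.3.

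The members, subgroups and lists were chosen with earlier results of these data known. The rule names all members, from each list up to 4 called genes by size of change, and a fixed set of genes; other names were chosen after their values were seen. Of 96 listed pathway genes 87 were measured, and some, the antisense RNAs among them, were not analysed here. Alternatives were 4 other scalings, a robust prior, a test against a 1.2-fold change, a replicate block, array weights, other ways to join or adjust over probe sets, and leaving out each array.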

Additional observations from a re-analysis of the deposited data

How the results depend on the processing

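The 6 rises of members were called in every one of the alternatives run for each gene, as was the fall of KLF13; KLF9 lost its call only in the test against a 1.2-fold change (-0.30, adjusted p = 0.477). Over the 10 genes 144 of 159 alternative values kept direction and call, 10 lost the call, 1 gained one and 4 turned in sign; over the 32 probe sets these were 431, 22, 11 and 16 of 480, and over the other named genes 530, 2, 5 and 6 of 543. Of the values that turned, those of KLF11 and of probe set 11717329_at of KLF9 with the hybridization controls (-0.18 and -0.2) were called after turning, and KLF3, called lower as deposited, stood at 0.02 with the poly-A controls. The others were small and called neither before nor after. With the hybridization controls, which moved the median of all genes down, SP3 stood at -0.13, THBD at -0.14, and probe sets 11729229_at of KLF3 at -0.09, 11760124_a_at of KLF6 at -0.14 and 11747833_a_at of KLF11 at -0.18. With the poly-A controls, which moved it up, FBXW7 stood at 0.14, and probe sets 11729231_at of KLF3 at 0.02, 11760125_a_at of KLF6 at 0.06 and 11717328_at of KLF9 at 0.12. From probe sets of class _at or _a_at, KLF11 stood at -0.11 and FBXW7 at 0.03, and FBXW7 was at 0.00 after quantile normalization. Without any 1 array, KLF11 ran from -0.01 to 0.08, FBXW7 from -0.08 to 0.02, and probe sets 11729229_at from -0.01 to 0.18, 11760124_a_at from -0.02 to 0.11, 11717329_at from -0.03 to 0.06 and 11747833_a_at from -0.04 to 0.16. The hybridization controls gave 12 member probe sets lower, 3087 of all genes higher and 11558 lower; the poly-A controls gave 3 member probe sets lower and 8906 of all genes higher. The test against a 1.2-fold change, which asks for a larger change, gave 1 member gene and 3 member probe sets lower, 25 listed genes lower, and 2889 of all genes higher and 3066 lower. Without any 1 array, 6 member genes stayed higher and 2 to 3 lower. Of all genes, 4555 to 4776 were then higher and 5189 to 5452 lower. KLF10 has no value from probe sets of class _at or _a_at. The labels do not state whether replicate numbers pair the arrays, and no pairing was visible. Deviations of same-numbered arrays correlated at -0.04, 0.07 and 0.011, and those of other pairs at -0.126 to 0.113. With a replicate block 6 member genes were higher and 3 lower, and 17 member probe sets higher and 7 lower. In that setting 4838 of all genes were higher and 5483 lower. The lack of levels and the 3 arrays a group limit what small changes can show.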
